A study of Mus musculus with 8 samples.

Results

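The hypoxia-inducible factor (HIF) genes and a set of hypoxia response genes were described here, as 10 genes selected by symbol of the 39089 genes in the tables. They were the HIF subunits *Hif1a*, *Epas1* and *Arnt*, the prolyl hydroxylases *Egln1*, *Egln2* and *Egln3*, the ubiquitin ligase component *Vhl*, and the target genes *Vegfa*, *Bnip3* and *Adm*. Myc-CaP cells come from a *Myc*-driven prostate cancer of the mouse. Myc-CaP EV cells carried the control vector and are called WT, and Myc-CaP sgARID1A cells carried a lentiviral CRISPR guide against *Arid1a*, which encodes a subunit of the SWI/SNF chromatin remodeler, and are called KO. Both were grown as subcutaneous tumors in male FVB mice, whose age the labels give as 6 weeks. JSH-23, which keeps the p65 subunit of NF-κB from entering the nucleus, was dissolved in DMSO, diluted in corn oil and gavaged once a day, starting 16 days after inoculation and lasting 2 weeks. The vehicle was recorded as corn oil, while the paper's legend for this tumor experiment names the control arms DMSO. The 4 groups were WT with vehicle, KO with vehicle, WT with JSH-23 and KO with JSH-23, with 2 samples in each. EpCAM+ CD45- cells were sorted for RNA-seq. The hosts were immunocompetent, so host cells could be present in the tumors before sorting. The sources used here do not say whether each line was 1 clone, or how tumors were assigned to the 2 samples of a group, and p-values therefore measure only the spread between these samples.

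HIF is a dimer of an oxygen-regulated α subunit, HIF-1α (*Hif1a*) or HIF-2α (*Epas1*), and a constitutive β subunit (*Arnt*). In the presence of oxygen, the EGLN hydroxylases modify the α subunit on proline, the VHL protein binds the modified form, and the α subunit is degraded. When oxygen falls, the α subunit accumulates, pairs with ARNT and binds the short DNA motif of hypoxia response elements near genes for angiogenesis, mitophagy, glycolysis and pH control. The main oxygen control of HIF-1α is thus on the protein, which RNA-seq does not measure. *Hif1a* transcription is a known target of NF-κB.

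The total counts ranged from 16401581 to 21972231 per sample, and 13921 genes passed the filter on low counts. Levels are given as normalized CPM (counts scaled to a common library size, after TMM scaling), and levels of different genes are compared as TPM, which is per gene length. The targeted gene, *Arid1a*, was at 156 and 161 CPM in WT tumors with vehicle, against 103 and 106 CPM in KO tumors with vehicle. With JSH-23 the levels were 144 and 155 CPM in WT against 93.8 and 95.9 CPM in KO tumors. It was 1.52-fold lower in KO than in WT tumors with vehicle (edgeR adjusted p = 1.39e-23) and 1.58-fold lower with JSH-23 (adjusted p = 5.12e-25). An edited transcript can still be counted, so these levels do not measure the protein. The gate's own marker, *Epcam*, had 0 to 4 counts in every sample, whereas the epithelial genes *Cldn3* and *Krt8* were at 230 to 337 CPM and 32.8 to 113 CPM. *Ptprc*, which encodes CD45, had 0 to 10 counts. Of the 11 leukocyte markers, 5 passed the filter, *Ly6g* was at 0 in every sample, and their summed level was 10.2 to 22.4 CPM. The 8 endothelial markers summed to 1.48 to 4.42 CPM.

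Of the members, 9 had an entry in the RefSeq promoter table (GRCm38.p6), and 7 of these held at least 1 HIF core motif, ACGTG or GCGTG on either strand, in the 250 bases before the first listed start. The same motif was present in 38.6% of all 32851 promoter windows of that length, so its presence is common. *Vhl* and the first start of *Vegfa* held none in this window. The 4 stretches printed here belong to the 3 members of highest TPM that held at least 2 cores before their first start and to *Adm*, the member of largest fold change. They are read 5′ to 3′ on the strand of the gene, with each HIF core in capitals.
*Hif1a*, chr12:73907702-73907831, plus strand, 165 to 36 bases before the start: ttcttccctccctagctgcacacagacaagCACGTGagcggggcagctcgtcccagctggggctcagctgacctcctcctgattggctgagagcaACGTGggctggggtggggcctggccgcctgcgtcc
*Egln1*, chr8:124949288-124949410, minus strand, 156 to 34 bases before the start: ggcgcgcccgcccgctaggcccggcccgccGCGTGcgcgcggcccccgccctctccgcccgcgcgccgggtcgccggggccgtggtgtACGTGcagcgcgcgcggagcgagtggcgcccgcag
*Bnip3*, chr7:138909507-138909653, minus strand, 147 to 1 bases before the start: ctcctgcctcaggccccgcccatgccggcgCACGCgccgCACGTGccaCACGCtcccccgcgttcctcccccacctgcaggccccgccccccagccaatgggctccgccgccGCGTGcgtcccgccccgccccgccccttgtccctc
*Adm*, chr7:110627537-110627637, plus strand, 120 to 20 bases before the start: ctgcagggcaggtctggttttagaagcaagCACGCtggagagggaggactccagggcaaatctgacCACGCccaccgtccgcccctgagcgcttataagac
The *Hif1a* stretch lies upstream of the RefSeq start, within the longer gene span that the authors deposited, which begins at position 73901324. In *Hif1a* and *Bnip3*, 1 palindrome CACGTG, the E-box read by MYC and other factors, holds the core on both strands at once. This E-box was present in 6.02% of all windows. A match of letters is not evidence of binding. For the other tested members, the deposited span of the whole gene, exons and introns included, is given with its first values.

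Across the libraries the members spanned a wide range of TPM. *Bnip3* was highest in all 8, followed by *Egln1*, *Vegfa*, *Hif1a* and *Arnt*, while *Adm*, *Epas1* and *Egln3* were the lowest. *Egln2* and *Vhl* held the sixth and seventh places, and their order differed between libraries. For example, in WT tumors with vehicle *Bnip3* was at 1187 ± 12.1 TPM, *Egln1* at 447 ± 0.294 TPM, *Vegfa* at 288 ± 3.56 TPM, *Hif1a* at 114 ± 2.03 TPM and *Epas1* at 0.710 ± 0.306 TPM (SD, n = 2). On the TPM scale the transcript for the HIF-1 α subunit was thus far above that for the HIF-2 α subunit in this line. *Egln1*, the main oxygen sensor of the family, was the most abundant hydroxylase. *Egln3*, a hydroxylase that hypoxia often induces, had 0 or 1 counts in every library, under the limit of 3 counts, and was not tested.

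**Figure D1:**
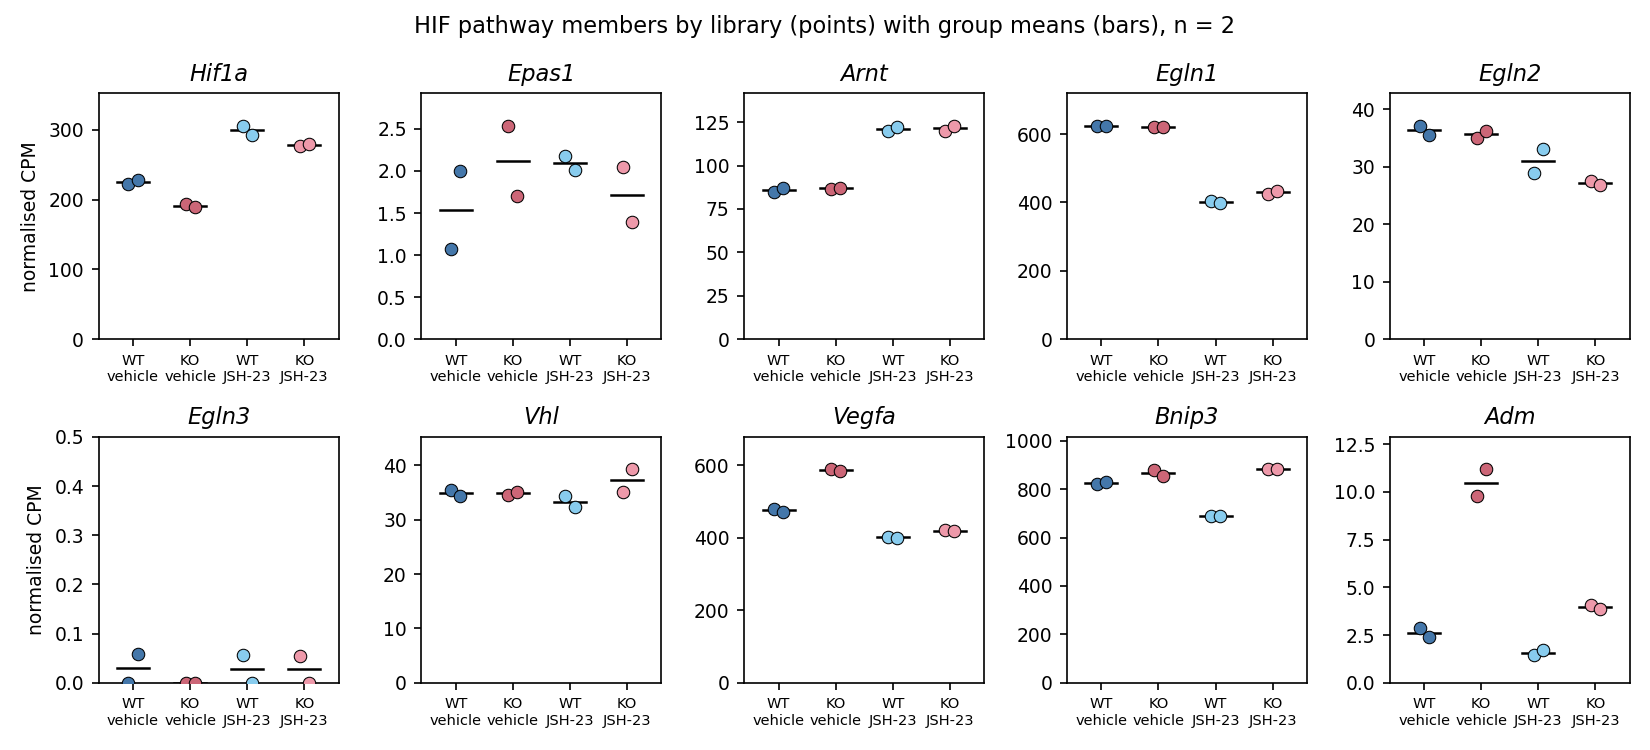
Normalized CPM (y axis, from 0, with its own range in each panel) of the 10 members in the 4 groups, with a point for each of the 2 libraries and a bar at their mean. *Hif1a* and *Arnt* sit higher in the JSH-23 groups, *Egln1* and *Vegfa* sit lower, and *Adm* is highest in KO tumors with vehicle, at 9.78 and 11.2 CPM.

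JSH-23 raised the transcripts of both subunits of HIF-1. *Hif1a* was at 223 and 228 CPM in WT tumors with vehicle, against 306 and 293 CPM in WT tumors with JSH-23. In KO tumors the vehicle samples were at 193 and 189 CPM and the JSH-23 samples at 277 and 279 CPM. No 2 groups overlapped, and both treated groups lay above both vehicle groups. The rise with JSH-23 was 0.41 ± 0.027 on the log2 scale in WT (SE, edgeR adjusted p = 6.72e-22) and 0.55 ± 0.027 in KO tumors (adjusted p = 5.86e-29). In these sorted bulk samples a change in the share of a cell type and a change in RNA per cell cannot be told apart.

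*Hif1a* was lower in KO than in WT tumors under both treatments. The log2 difference was -0.24 ± 0.028 with vehicle (edgeR adjusted p = 1.51e-11) and -0.11 ± 0.025 with JSH-23 (adjusted p = 3.00e-04). Without the first WT library with JSH-23, the latter was -0.07 with an adjusted p of 0.0501. The interval for vehicle ran from -0.30 to -0.19, which corresponds to a level 1.18-fold lower at the estimate.

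*Arnt* (chr3:95434367-95497240), the shared β subunit, was at 85.0 and 86.8 CPM in WT and at 86.7 and 86.9 CPM in KO tumors with vehicle. With JSH-23 the levels were 120 and 122 CPM in WT and 120 and 123 CPM in KO tumors. The genotypes overlapped at each treatment, and the treatments did not overlap. JSH-23 raised it by 0.50 ± 0.040 on the log2 scale in WT (edgeR adjusted p = 7.68e-18) and by 0.49 ± 0.038 in KO tumors (adjusted p = 8.36e-19). The difference between genotypes with vehicle was 0.01, with an interval from -0.07 to 0.10. The rise was 1.41-fold in WT and 1.40-fold in KO tumors, and the interaction was -0.01 with an interval from -0.12 to 0.10. Whether the genotypes were called different depends on the scaling. On log2(TPM + 1) values, KO against WT with JSH-23 was called at -0.18 (limma adjusted p = 0.00154). The interaction was called there at -0.20 (limma adjusted p = 0.00712). Both values were close to the medians of all tested genes on that scale, -0.16 and -0.17.

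*Epas1* (chr17:86753864-86833410) had only 18 to 46 counts per library, or 1.07 to 2.54 CPM. Neighboring groups overlapped at every step of the order, and none of the comparisons was called, with edgeR adjusted p-values from 0.198 to 0.473. The interval for KO against WT with vehicle, -0.20 to 1.09, shows how little this depth could resolve.

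Both tested hydroxylases fell under JSH-23, while *Hif1a* rose. *Egln1* was at 625 and 623 CPM in WT and at 620 and 622 CPM in KO tumors with vehicle. With JSH-23 it was at 404 and 399 CPM in WT and at 425 and 434 CPM in KO tumors. All 4 treated libraries lay below all 4 vehicle libraries. The fall was 0.63 ± 0.020 on the log2 scale in WT, or 1.55-fold (edgeR adjusted p = 3.05e-39), and 0.53 ± 0.019 in KO tumors, or 1.44-fold (adjusted p = 6.48e-36). With vehicle the genotypes differed by -0.01, with an interval from -0.05 to 0.03. With JSH-23 *Egln1* was called higher in KO tumors, by 0.10 ± 0.021, but on TPM values the same difference was -0.09, so its direction depends on the scaling. The median of all tested genes for that comparison was -0.16 on log2(TPM + 1) values. A gene on the same strand, *Gm46060*, overlaps *Egln1* and had 187 to 238 counts against 6566 to 12837 for *Egln1*.

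*Egln2* (chr7:27158658-27166802), which encodes another HIF prolyl hydroxylase, was at 37.2 and 35.5 CPM in WT and at 35.1 and 36.2 CPM in KO tumors with vehicle. With JSH-23 the levels were 28.9 and 33.1 CPM in WT and 27.5 and 26.9 CPM in KO tumors. JSH-23 lowered it by 0.23 ± 0.073 on the log2 scale in WT (edgeR adjusted p = 0.00476) and by 0.39 ± 0.071 in KO tumors (adjusted p = 1.72e-06). The WT call was lost without the first vehicle library (-0.19, adjusted p = 0.0661) and without the first JSH-23 library (-0.13, adjusted p = 0.21). With JSH-23, *Egln2* differed between KO and WT tumors by -0.19 ± 0.075 (adjusted p = 0.0328), a call that was lost without the second WT library with JSH-23 (-0.09) or without either KO library with JSH-23 (-0.20 and -0.16), and with DESeq2 (adjusted p = 0.145).

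*Vhl* (chr6:113623994-113631634), whose protein recognizes hydroxylated HIF-α for degradation, was called in 1 comparison. It was at 35.5 and 34.4 CPM in WT and 34.6 and 35.1 CPM in KO tumors with vehicle. With JSH-23 it was at 34.3 and 32.3 CPM in WT and 35.1 and 39.3 CPM in KO tumors. JSH-23 against vehicle was not called in either genotype, with intervals from -0.21 to 0.07 in WT and from -0.04 to 0.23 in KO tumors. *Vhl* was called higher in KO tumors with JSH-23, by 0.16 ± 0.069 (edgeR adjusted p = 0.0477). That call was lost without the second WT library with JSH-23 (0.12), the second KO library with JSH-23 (0.09) or the second KO library with vehicle (0.16, adjusted p = 0.0543) and with DESeq2 (adjusted p = 0.190), and the difference was -0.03 on TPM values. Without the first KO library with JSH-23, *Vhl* was called higher with JSH-23 in KO tumors (0.19, adjusted p = 0.0308).

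The 3 targets differed from each other in pattern. *Vegfa* (chr17:46016993-46032377), the principal angiogenic factor of the pathway, was at 480 and 471 CPM in WT and at 589 and 583 CPM in KO tumors with vehicle. With JSH-23 it was at 402 and 400 CPM in WT and at 422 and 417 CPM in KO tumors. The 4 groups did not overlap, and KO tumors with vehicle were the highest. *Vegfa* rose with *Arid1a* loss under vehicle by 0.30 ± 0.020 on the log2 scale (edgeR adjusted p = 1.60e-21). JSH-23 lowered it by 0.25 ± 0.021 in WT (adjusted p = 1.50e-16) and by 0.48 ± 0.020 in KO tumors (adjusted p = 5.47e-33). The 2 falls differed by -0.24 ± 0.029 (adjusted p = 2.70e-10), and this difference ranged from -0.43 to -0.21 over the alternatives. With JSH-23 the genotypes differed by only 0.06 ± 0.021, which became -0.01 without TMM factors and -0.13 on TPM values. Its edgeR adjusted p of 0.00788 became 0.0539 without the second WT library with JSH-23.

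*Bnip3*, a mitochondrial protein that marks damaged mitochondria for mitophagy, was at 821 and 831 CPM in WT and at 881 and 854 CPM in KO tumors with vehicle. With JSH-23 it was at 687 and 689 CPM in WT and at 883 and 882 CPM in KO tumors. WT tumors with JSH-23 were the lowest, and all other libraries lay between 821 and 883 CPM. The fall in WT was 0.26 ± 0.018 on the log2 scale (edgeR adjusted p = 2.03e-21). In KO tumors the change was 0.03, with an interval from -0.01 to 0.06, and it was -0.09 without TMM factors and -0.21 on TPM values. It was called, at 0.05, without the first KO library with vehicle (adjusted p = 0.0202) or the second KO library with JSH-23 (adjusted p = 0.0266). The 2 effects of JSH-23 differed by 0.29 ± 0.024 (adjusted p = 1.95e-16). *Bnip3* was higher in KO than in WT tumors by 0.07 ± 0.017 with vehicle (adjusted p = 4.37e-04) and by 0.36 ± 0.017 with JSH-23 (adjusted p = 1.16e-28). The former was 0.05 without the first KO library with vehicle, with an adjusted p of 0.0622.

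*Adm*, which encodes the vasodilator peptide adrenomedullin, was low and showed larger fold changes than the other tested members in each comparison of 2 groups. It had 48 and 41 counts in WT and 177 and 232 counts in KO tumors with vehicle, or 2.85 and 2.41 against 9.78 and 11.2 CPM. With JSH-23 it had 26 and 28 counts in WT and 75 and 81 counts in KO tumors, or 1.45 and 1.70 against 4.05 and 3.89 CPM. None of the groups overlapped. KO tumors were higher by 2.00 ± 0.18 on the log2 scale with vehicle, which is 4-fold (edgeR adjusted p = 6.83e-16), and by 1.33 ± 0.23 with JSH-23, which is 2.52-fold (adjusted p = 1.54e-06). JSH-23 lowered *Adm* by 1.41 ± 0.16 in KO tumors, or 2.65-fold (adjusted p = 2.83e-12), and by 0.74 ± 0.26 in WT tumors (adjusted p = 0.0124). The WT fall lost its call with DESeq2 (adjusted p = 0.0503), without the first WT library with vehicle (-0.61) and without the first WT library with JSH-23 (-0.62). The level of *Adm* in treated KO tumors was above that in WT tumors with vehicle, at 3.97 ± 0.119 against 2.63 ± 0.310 CPM (SD, n = 2). The noncoding gene *Gm28863* overlaps *Adm* on the opposite strand, and it had 40 and 34 counts in WT tumors against 91 and 91 in KO tumors with vehicle. With JSH-23 it had 8 and 9 counts in WT tumors against 23 and 15 in KO tumors. These counts thus moved in the same directions as those of *Adm*, and whether the reads were shared was not tested.

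Like *Adm* and *Vegfa*, most markers of the immediate early and heat shock responses were higher in KO than in WT tumors with vehicle and lower with JSH-23. Their sum was lower in KO tumors with JSH-23 than in WT tumors with vehicle, as for *Vegfa*, whereas *Adm* was higher there. The 9 markers of immediate early and heat shock responses summed to 690 to 700 CPM in WT and 1105 to 1111 CPM in KO tumors with vehicle, and to 440 to 454 CPM in WT and 602 to 627 CPM in KO tumors with JSH-23, and *Junb* made up the largest part of the sum. With vehicle, 8 of the 9 were called higher in KO tumors, and JSH-23 against vehicle was called lower for 6 and higher for 1 in each genotype. The one called higher in WT was *Fosb*, at a mean of 3.08 CPM with vehicle and 5.14 CPM with JSH-23. *Fos*, for example, was at 5.88 and 5.94 CPM in WT and at 32.8 and 34.6 CPM in KO tumors with vehicle. None of the 9 markers was at 0 in any library. Their part in the results on *Adm* and *Vegfa* was not tested. The 8 fibroblast and pericyte markers summed to 41.2 to 42.9 CPM in KO tumors with JSH-23 and to 60.4 to 65.8 CPM in the other groups, nearly all of it *Pdgfra*, while *Thy1* was at 0 in 7 libraries. The 5 erythroid markers summed to 5.28 to 8.12 CPM in WT and 9.64 to 13.6 CPM in KO tumors, mostly *Hba-a1*, which was the only one of the 3 tested that was called higher in KO tumors. Among the 11 leukocyte markers, 4 of the 5 tested were called lower in KO than in WT tumors with vehicle, with *Cd68* called higher. *Lyz2*, for example, had 164 and 165 counts in WT and 54 and 71 in KO tumors with vehicle, and *Adgre1* had 17 and 19 counts against 0 in both KO libraries. With JSH-23 the WT libraries differed from each other, with 190 and 85 counts of *Lyz2* and 17 and 1 of *Adgre1*. The part of these markers in the differences between KO and WT tumors was not tested.

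The counts of members called can be read against those of all tested genes. With vehicle, KO tumors differed from WT tumors in 4 of the 9 tested members, with *Vegfa*, *Bnip3* and *Adm* higher and *Hif1a* lower, where 25.0% of all tested genes were called higher and 25.5% lower. With at least 1.5-fold, *Adm* was the only one, where 7.48% of all genes were called higher and 5.16% lower. With JSH-23, 5 members were higher in KO tumors (*Egln1*, *Vhl*, *Vegfa*, *Bnip3* and *Adm*) and 2 were lower (*Hif1a* and *Egln2*), against 23.2% and 23.8% of all genes. *Adm* was again the only one at 1.5-fold, against 3.74% of all genes higher and 4.97% lower. On TPM values this split of 5 higher and 2 lower became 2 higher and 5 lower, and without TMM factors it was 2 and 2. The calls of all genes shifted too. Of all genes called in this comparison, 49.4% were higher with TMM factors, 17.8% on log2(TPM + 1) values and 34.4% without TMM factors.

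JSH-23 changed 7 of the tested members in WT and 6 in KO tumors. In WT tumors 2 were called higher (*Hif1a* and *Arnt*) and 5 lower (*Egln1*, *Egln2*, *Vegfa*, *Bnip3* and *Adm*), against 28.6% and 27.2% of all genes. At 1.5-fold 2 were lower, *Egln1* and *Adm*, against 5.55% of all genes higher and 10.2% lower. *Adm* lost its call there without the first WT library of either treatment, which left 1 member. In KO tumors 2 were called higher (*Hif1a* and *Arnt*) and 4 lower (*Egln1*, *Egln2*, *Vegfa* and *Adm*), against 33.4% and 34.4% of all genes. At 1.5-fold *Adm* alone was lower, against 9.10% of all genes higher and 16.9% lower, and on TPM values *Egln1*, *Egln2* and *Vegfa* were also past 1.5-fold. These comparisons share samples. The median log2 change of the tested members was -0.23 with JSH-23 in WT and -0.30 in KO tumors, where that of all genes was -0.01 and -0.02. For KO against WT it was 0.01 with vehicle and 0.06 with JSH-23, where that of all genes was 0.00 and -0.01. With 9 tested members, each median is the value of 1 gene, while members were called in both directions. For JSH-23 in WT that gene was *Egln2*. In KO tumors it was *Epas1*, which was not called and ranged from -0.57 to 0.02 with 1 sample left out.

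In the edgeR fit, the effect of JSH-23 was called different between genotypes in 4 of the 9 tested members. It was more positive in KO tumors for *Hif1a*, *Egln1* and *Bnip3*, where 20.5% of all genes were, and more negative for *Vegfa*, where 17.9% of all genes were. The differences for *Hif1a*, 0.14 ± 0.038 (edgeR adjusted p = 0.00245), and *Egln1*, 0.10 ± 0.028 (adjusted p = 0.00176), turned to -0.06 and -0.09 on TPM values. No member was called with a difference of at least 1.5-fold by edgeR, where 3.30% of all genes were more positive and 5.76% more negative. At an unadjusted p under 0.05, 1 member, *Adm*, was past that size in edgeR (-0.67 ± 0.31, adjusted p = 0.0841). DESeq2 called 0, and limma on log2(TPM + 1) called 1.

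The scale matters for KO tumors with JSH-23. The median change of all genes there, against vehicle, was -0.02 with TMM factors, -0.13 with library size alone and -0.20 on log2(TPM + 1) values, and the share of calls that were higher was 49.3%, 37.7% and 25.2%. Relative to the median gene, *Hif1a* and *Arnt* were higher and *Egln1*, *Egln2*, *Vegfa* and *Adm* were lower on each of these scales. The sizes moved with the scale, however, and on log2(TPM + 1) values the changes with JSH-23 in KO tumors were 0.30 for *Hif1a*, 0.24 for *Arnt*, -0.61 for *Egln2* and -0.72 for *Vegfa*. On that scale *Hif1a* was -0.29 and *Bnip3* 0.17 for KO against WT with JSH-23, and the interaction of *Bnip3* was 0.09. The medians of all genes there were -0.16 for KO against WT with JSH-23 and -0.17 for the interaction. The close likeness of the 2 samples of a group, whose biological coefficient of variation was estimated at 1.61% over all genes, also sets which small changes were called. With that coefficient set to 0.1, *Adm* alone kept its call for KO against WT under either treatment, 4 members kept theirs for JSH-23 in WT (*Hif1a*, *Arnt*, *Egln1* and *Adm*), and all 6 kept theirs for JSH-23 in KO tumors. None of the interactions was then called.

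**Figure D2:**
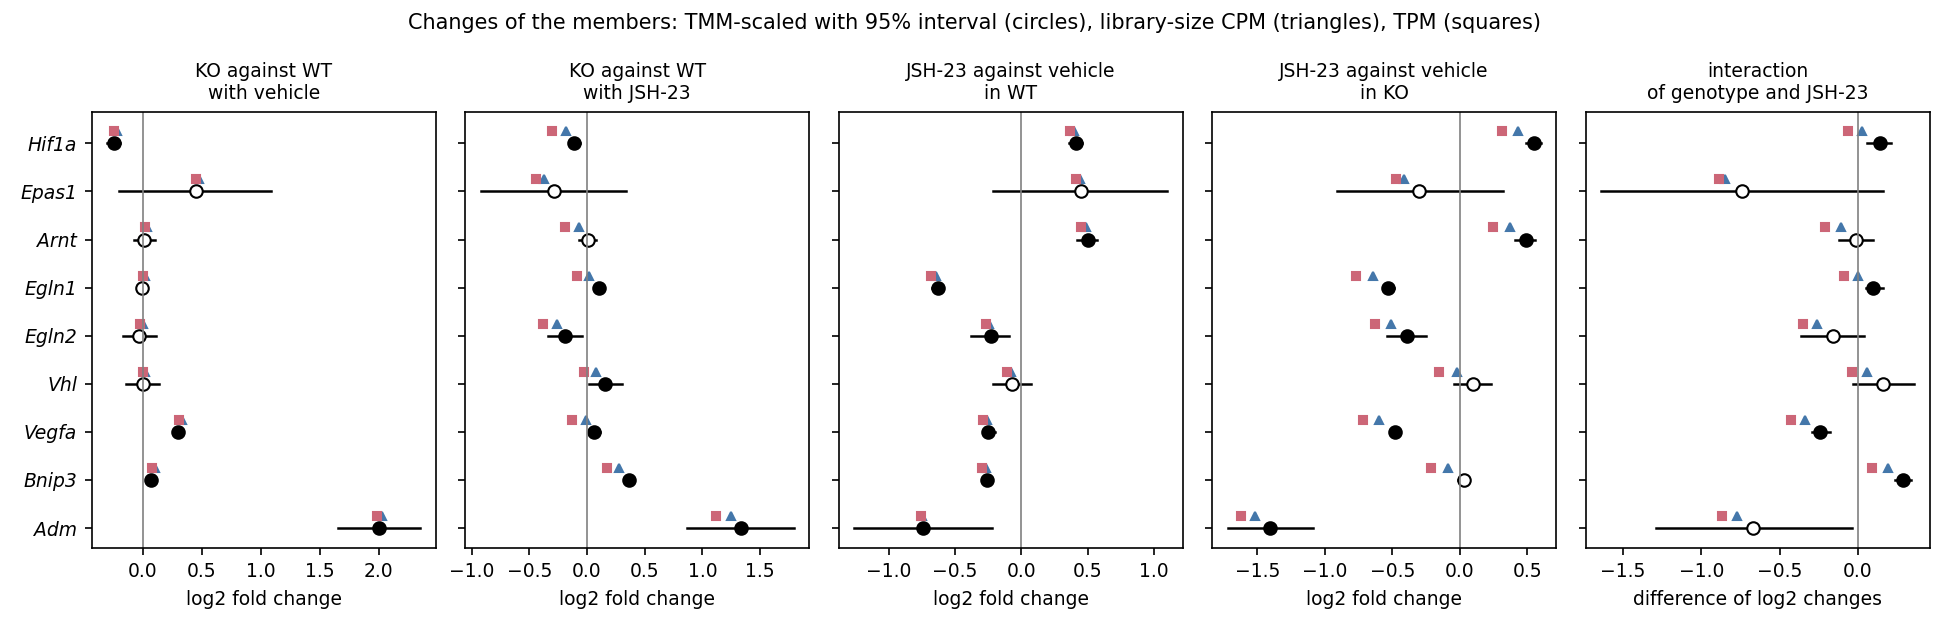
Log2 changes (x axis, a range of its own in each panel) of the 9 tested members in the 5 comparisons, with the TMM-scaled estimate and its 95% interval (circles, filled where the adjusted p was under 0.05), library-size CPM (triangles) and log2(TPM + 0.1) values (squares). The 3 scales lie close together for KO against WT with vehicle and for JSH-23 in WT, and spread apart in the comparisons that use KO tumors with JSH-23.

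Ratios of TPM values within a library do not depend on the scaling between libraries. *Egln1* per *Hif1a* was 3.97 and 3.87 in WT and 4.55 and 4.67 in KO tumors with vehicle, and 1.87 and 1.93 in WT and 2.17 and 2.20 in KO tumors with JSH-23. The ratio of hydroxylase to HIF-1α transcripts was lower with JSH-23 in both genotypes, without overlap, and it was higher in KO tumors at each treatment. *Vegfa* per *Hif1a* was 2.58 and 2.47 in WT and 3.66 and 3.69 in KO tumors with vehicle, and 1.57 and 1.63 in WT and 1.82 and 1.78 in KO tumors with JSH-23. *Bnip3* per *Vegfa* was lowest in KO tumors with vehicle, at 3.55 and 3.48, and highest in KO tumors with JSH-23, at 4.97 and 5.03, with both WT groups between 4.06 and 4.19. These targets thus did not change in proportion in KO tumors. With 2 libraries a group, an exact permutation test of any single ratio cannot go below 0.333 (two-sided), so these ratios are descriptions.

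**Figure D3:**
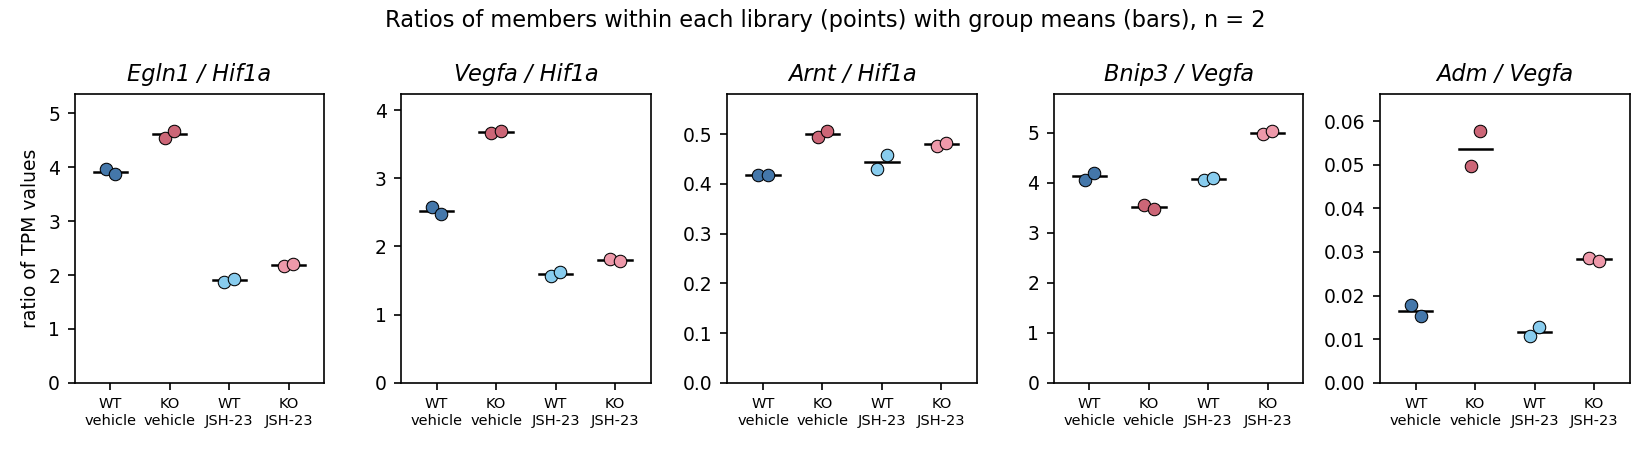
Ratios of TPM values of 2 members within each library (y axis, from 0) in the 4 groups, with a point for each of the 2 libraries and a bar at their mean. *Egln1* per *Hif1a* falls from between 3.87 and 4.67 with vehicle to between 1.87 and 2.20 with JSH-23, and *Adm* per *Vegfa* is highest in KO tumors with vehicle, at 0.0497 and 0.0577.

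Other genes of the pathway were taken from 7 lists, whose medians are set against all-gene medians between -0.02 and 0.00. The counts of listed genes called are likewise to be read against all tested genes. Of these, 50.5% were called for KO against WT with vehicle and 47.0% with JSH-23. For JSH-23 against vehicle the shares were 55.8% in WT and 67.8% in KO tumors, and for the interaction 38.4%. Among 8 other HIF subunits and partners, 6 passed the filter. *Hif3a*, which encodes an α subunit that can restrain HIF-1, was at 188 and 195 CPM in WT tumors that received vehicle, against 135 and 136 CPM after JSH-23. It fell with JSH-23 by 0.50 ± 0.033 in WT and by 0.43 ± 0.032 in KO tumors on the log2 scale. With JSH-23 in KO tumors, 5 of the 6 were lower, with a list median of -0.42. *Sim2*, a bHLH-PAS factor that also pairs with ARNT, fell by 0.73 ± 0.11 in WT and 0.98 ± 0.11 in KO tumors. *Arnt2*, at 19 to 49 counts, rose with JSH-23 in WT by 0.96 ± 0.32 and differed between KO and WT tumors with JSH-23 by -0.85 ± 0.31, and its interaction was -1.38 ± 0.46.

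The list of HIF turnover and inhibition held 12 genes, of which 11 were tested, and genes were called in both directions in each comparison. With vehicle 5 were higher and 1 lower in KO tumors. JSH-23 raised 6 and lowered 2 in WT, and raised 5 and lowered 3 in KO tumors, with a list median there of 0.08 that became -0.04 without TMM factors and -0.16 on TPM values. *Hif1an*, the asparagine hydroxylase that blocks the transactivation domain of HIF-α, was at 47.6 and 47.1 CPM in WT and 50.9 and 52.2 CPM in KO tumors with vehicle. With JSH-23 the levels were 32.8 and 34.5 CPM in WT and 25.7 and 26.7 CPM in KO tumors. It fell by 0.49 ± 0.065 in WT and by 0.98 ± 0.064 in KO tumors, and these falls differed by -0.48 ± 0.092 (edgeR adjusted p = 1.20e-05). *Wsb1*, a ubiquitin ligase component that targets VHL and is itself induced by HIF, was 1.61-fold higher in KO tumors with vehicle, at 291 and 290 against 180 and 180 CPM. JSH-23 lowered it 1.66-fold in WT and 2.12-fold in KO tumors. *Siah2*, a ligase that degrades hydroxylases, was 1.64-fold higher in KO tumors with vehicle, at 28.3 and 26.6 against 17.2 and 16.3 CPM, and its interaction was -0.69 ± 0.12. *Hsp90ab1*, a chaperone that stabilizes HIF-1α among many clients, rose 1.59-fold with JSH-23 in KO tumors.

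Of the 12 angiogenic and vasoactive targets, 7 were tested, and JSH-23 lowered 5 of them in WT and 4 in KO tumors, with the rest not called. The list medians were -1.13 and -0.77, and on log2(TPM + 1) values, which shrink the changes of low genes, they were -0.35 and -0.40. *Pgf*, a VEGF family ligand, was at 17.4 and 17.1 CPM in WT tumors with vehicle, against 7.71 and 6.75 CPM with JSH-23, a fall of 1.25 ± 0.12 on the log2 scale, and it fell by 1.27 ± 0.12 in KO tumors. *Pdgfb* had 36 and 26 counts in WT tumors with vehicle and 11 and 9 with JSH-23, and fell by 1.64 ± 0.42 in WT and 1.93 ± 0.41 in KO tumors. *Edn1*, which encodes the vasoconstrictor endothelin-1, was lower in KO than in WT tumors with vehicle, with a log2 difference of -0.63 ± 0.064, and that of *Angptl4* was -0.61 ± 0.11, opposite in direction to *Vegfa* and *Adm*.

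The matrix and proline hydroxylation targets had all 7 genes tested. With vehicle 6 were higher in KO tumors and 1, *Lox*, was lower, with a list median of 0.41. *P4ha1*, the catalytic subunit of collagen prolyl hydroxylase, was at 331 and 329 CPM in WT and 517 and 524 CPM in KO tumors, a rise of 0.66 ± 0.022 (edgeR adjusted p = 5.77e-38). With JSH-23, 5 of the 7 were lower in each genotype, and the list medians of -0.67 in WT and -0.50 in KO tumors stayed below 0 on every scaling tried. *Loxl2*, which crosslinks collagen, fell 1.78-fold in WT and 1.94-fold in KO tumors, and *P4ha2* fell 1.59-fold and 1.94-fold. *Plod2*, a collagen lysyl hydroxylase, fell 1.68-fold in WT and 1.87-fold in KO tumors. *Plod1* instead rose by 0.54 ± 0.084 with JSH-23 in WT and had an interaction of -0.61 ± 0.12. *Ero1a*, an oxidase of the endoplasmic reticulum, was higher in KO tumors by 0.30 with vehicle and 0.49 with JSH-23. *Lox* was low, with 12 and 11 counts in WT tumors and 1 and 2 counts in KO tumors with vehicle.

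Among 12 mitophagy, growth and transcription targets, 11 were tested, and 8 were higher in KO tumors with vehicle and 8, not all of them the same genes, with JSH-23. The list median was 0.20 with vehicle and 0.22 with JSH-23, and on TPM values 4 were higher and 1 lower with JSH-23. JSH-23 raised 2 and lowered 5 in WT and raised 3 and lowered 5 in KO tumors. The latter counts became 0 raised and 8 lowered on TPM values, and 1 and 6 with library size alone. *Ddit4*, an inhibitor of mTORC1, was at 678 and 697 CPM in WT and 1205 and 1220 CPM in KO tumors with vehicle. *Ankrd37* was at 76.9 and 82.0 CPM in WT and 139 and 136 CPM in KO tumors with vehicle, and JSH-23 lowered it 1.64-fold in WT and 2.17-fold in KO tumors. *Higd1a*, a regulator of the mitochondrial respiratory chain, was 1.63-fold higher in KO tumors with vehicle and 1.78-fold higher with JSH-23, and fell 1.63-fold with JSH-23 in WT. *Ndrg1*, a common hypoxia marker, had only 2 to 16 counts and was not called in any comparison.

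The pH and iron targets were all tested, 6 of 6, and 4 were higher and 2 lower in KO tumors at either treatment. JSH-23 lowered 3 and raised 1 in each genotype, although on TPM values none was raised in KO tumors. *Car9*, the carbonic anhydrase used as a marker of hypoxia, was at 12.0 and 11.6 CPM in WT and 15.2 and 15.7 CPM in KO tumors with vehicle. With JSH-23 the levels were 7.82 and 7.17 CPM in WT and 11.8 and 13.1 CPM in KO tumors. It was higher in KO tumors by 0.39 ± 0.11 with vehicle and 0.74 ± 0.12 with JSH-23, and fell with JSH-23 by 0.65 ± 0.13 in WT and 0.31 ± 0.10 in KO tumors. *Car12* had 3 and 1 counts in WT tumors with vehicle and 1 and 2 with JSH-23, within the limit of 3 counts, against 45 and 33 and then 33 and 36 counts in KO tumors. *Tfrc*, the transferrin receptor, was at 116 and 116 CPM in WT and 333 and 324 CPM in KO tumors with vehicle, and JSH-23 lowered it 2.08-fold in KO tumors, with an interaction of -0.73 ± 0.047. *Trf*, its ligand, was higher in KO tumors with JSH-23 by 2.14 ± 0.37, from 9 to 59 counts per library. *Hmox1*, heme oxygenase, fell 2.36-fold with JSH-23 in WT and 1.90-fold in KO tumors.

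Of 20 glycolytic targets, 19 were tested. With vehicle 7 were higher and 9 lower in KO than in WT tumors, and with JSH-23 14 were higher and 2 lower (12 and 4 on TPM values). JSH-23 lowered 16 and raised 2 in WT, with a list median of -0.27. In KO tumors it raised 9 and lowered 9, with a list median of 0.00 that became -0.23 on TPM values. The difference between these effects was called positive for 15 genes and negative for 2, and on TPM values for 11 and between 2 and 3, depending on the pseudocount. *Pgk1*, which encodes phosphoglycerate kinase, was at 6448 and 6449 CPM in WT and 5195 and 5194 CPM in KO tumors with vehicle. With JSH-23 the levels were 5367 and 5349 CPM in WT and 6932 and 6935 CPM in KO tumors. Its interaction was 0.68 ± 0.014, and that of *Ldha*, lactate dehydrogenase A, was 0.65 ± 0.017. *Slc2a1*, the main glucose transporter, was higher in KO tumors by 0.23 ± 0.018 with vehicle and 0.39 ± 0.019 with JSH-23. *Slc16a3*, the lactate exporter MCT4, had 33 and 36 counts in WT and 162 and 191 counts in KO tumors with vehicle, a level 4.45-fold higher. JSH-23 lowered it 2.68-fold in WT and 2.45-fold in KO tumors, and *Pfkfb4* rose 1.74-fold and 2.06-fold.

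**Figure D4:**
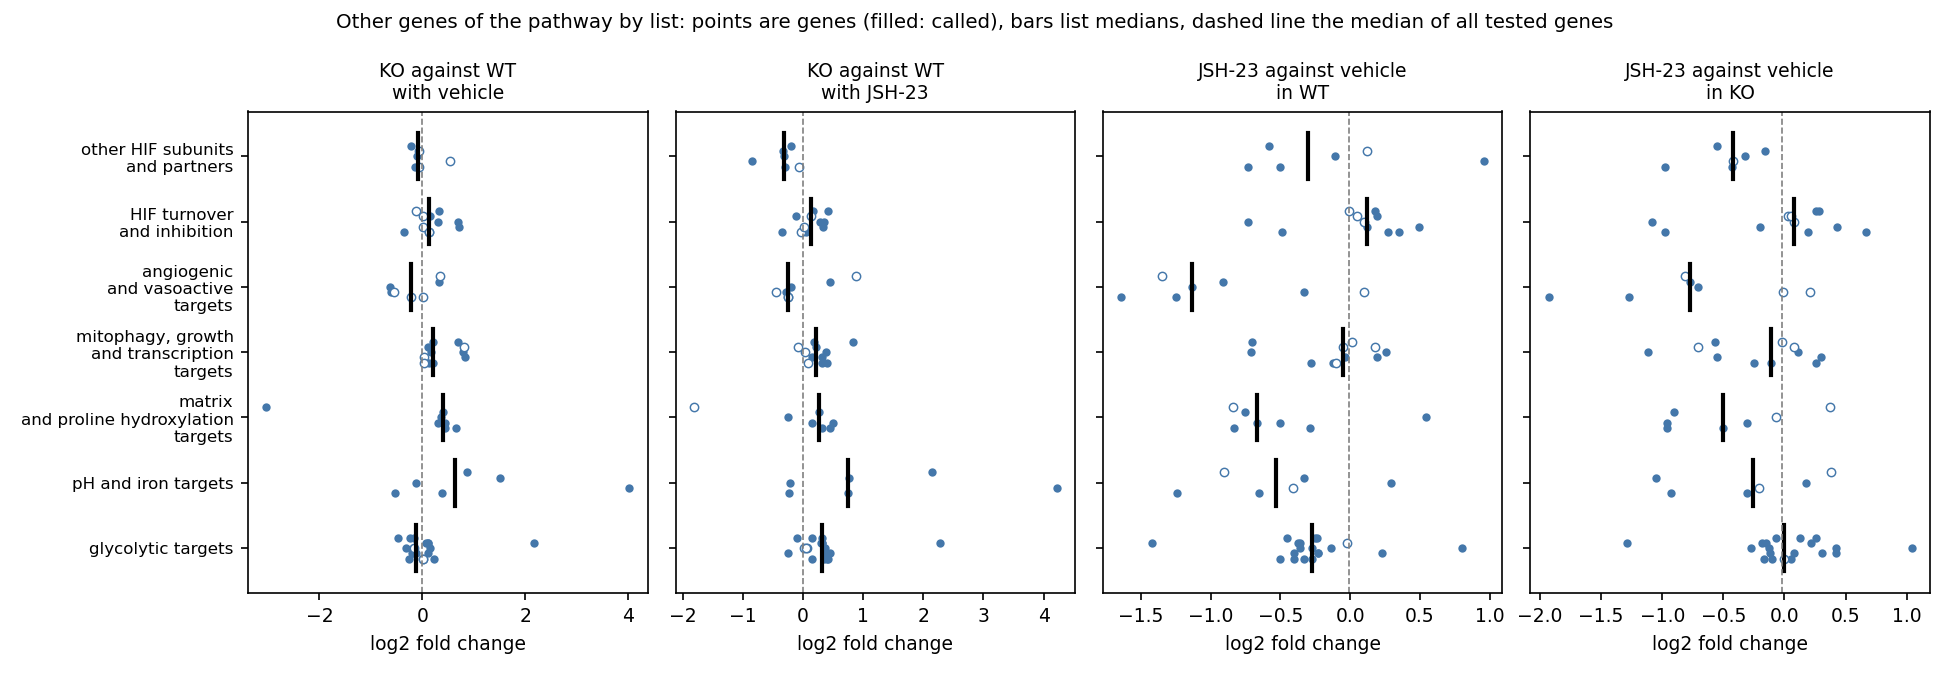
Log2 changes (x axis, a range of its own in each panel) of the tested genes of the 7 lists in 4 comparisons, with a point for each gene (filled where called), a bar at the list median and a dashed line at the median of all tested genes. With JSH-23 in WT, the bars of the angiogenic list, at -1.13, and the matrix list, at -0.67, lie farthest left of the dashed line at -0.01.

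The genes nearest in pattern to each member were found by Pearson correlation of log2 CPM over the 8 libraries, which share the 4 group means, so the values are descriptions. For *Hif1a* they were *Phip* (0.997) and *Tmem231* (0.996), and for *Arnt* they were *Arl4c* (0.999) and *Sbno1* (0.998). *Egln1* was nearest to *Fosl1* (0.998) and *Cxcl5* (0.996). *Vegfa* was nearest to *Lif* (0.999) and *Hk2* (0.997), of which *Hk2*, hexokinase 2, is in the glycolytic list. *Bnip3* was nearest to *2200002D01Rik* (0.993) and *Rab27a* (0.992), and *Adm* to *Naa50* (0.997) and *Aldh1a3* (0.996). *Egln2* was nearest to *Dtnbp1* (0.980) and *Gm21992* (0.977). The highest values for *Vhl*, 0.907 with *Ubl4a*, and for *Epas1*, 0.838 with *Plcxd2*, were lower than for the other members.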

How the data were processed

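RNA-seq of cells sorted from subcutaneous tumors was analyzed for 4 groups of 2 samples, grouped by the sample labels. The paper's methods name TopHat2 with the best match per read, and HTSeq-count by strand on GRCm38/mm10. The submitters' processing notes list HISAT2, HTSeq and DESeq2, so the aligner is uncertain. The authors deposited whole-number counts per gene without normalization. They also deposited a TPM value for each count, which is the count divided by gene length and scaled to a constant sum per sample.

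From the counts, filterByExpr of edgeR 4.0.16 (R 4.3.3) left 13921 of 39089 genes. TMM factors for them ranged from 0.949 to 1.03. The quasi-likelihood fit took all 8 samples and gave each group its own mean, with Benjamini-Hochberg adjustment over all tested genes. A gene was called at an adjusted p under 0.05. The authors' 1.5-fold threshold was applied as a second criterion. Standard errors were taken from the F statistic. Total counts ranged from 16401581 to 21972231 per sample, and a limit of 3 counts corresponded to between 0.144 and 0.182 CPM, which covers counting error only.

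The members and the gene lists were chosen with earlier results of these data known. All 10 members were named, along with *Arid1a*. From each list, at most 2 genes with the largest rise and 2 with the largest fall per comparison were named (called, 1.5-fold, mean of at least 1 CPM), with *Car9*, *Car12*, *Ndrg1*, *P4ha1*, *Slc2a1*, *Ldha* and *Pgk1* named whatever their values. *Hif3a*, *Ero1a* and *Lox* were named after their values were seen. Some listed genes are not reported here by name. For each member, 2 genes of nearest pattern (mean of at least 10 CPM) were eligible to be named.

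Alternatives were DESeq2 1.42.0, library size without TMM factors, no low-count filter, a minimum of 10 counts in every sample, a replicate block, limma 3.58.1 on log2(TPM + 1) and log2(TPM + 0.1), only the groups compared in the fit, a biological coefficient of variation set to 0.1 or 0.2, a test against the 1.5-fold change, and each sample left out in turn. Promoter windows of 250 bases were taken from RefSeq (GRCm38.p6). Gene positions were those that the authors deposited with the counts.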

Additional observations from a re-analysis of the deposited data

Results flagged for a closer look

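For 4 of the 9 tested members, the interaction term of the edgeR fit was called, where it was called for 38.4% of all tested genes. By this fit the effect of JSH-23 differed in size between KO and WT tumors. None of the 4 calls remained with the biological coefficient of variation set to 0.1. The difference on the log2 scale was 0.29 for *Bnip3*, which fell by 0.26 in WT tumors and changed by 0.03 in KO tumors. It was 0.10 for *Egln1*, which fell by 0.63 in WT and 0.53 in KO tumors. It was 0.14 for *Hif1a*, which rose by 0.41 in WT and 0.55 in KO tumors. It was -0.24 for *Vegfa*, which fell by 0.25 in WT and 0.48 in KO tumors. The values for *Bnip3* and *Vegfa* kept their sign on each scale tried, and those for *Hif1a* and *Egln1* turned negative on TPM values. With library size alone *Hif1a* was at 0.03 and *Egln1* at 0.00, and neither was called.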

How the results depend on the processing

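Some calls and signs depended on the scaling and on the assumed spread. On log2(TPM + 1) and log2(TPM + 0.1) values, the sign turned for KO against WT with JSH-23 in *Arnt* (-0.18 and -0.19), *Egln1* (-0.09 in both), *Vhl* (-0.03 in both) and *Vegfa* (-0.13 in both), for JSH-23 in KO tumors in *Vhl* (-0.14 and -0.15) and *Bnip3* (-0.21 in both), for the interaction in *Hif1a* (-0.06 in both), *Egln1* (-0.09 in both) and *Vhl* (-0.03 and -0.04), and for KO against WT with vehicle in *Vhl* (0.00). With library size alone it turned for *Arnt* (-0.07) and *Vegfa* (-0.01) in KO against WT with JSH-23, for *Egln1* (0.02) and *Vhl* (0.02) in the same with vehicle, and for *Vhl* (-0.02) and *Bnip3* (-0.09) with JSH-23 in KO tumors. With at least 10 counts in every sample, *Egln1* was at 0.00 and *Vhl* at 0.01 for KO against WT with vehicle. With 1 sample left out, values near 0 crossed it, in ranges of -0.57 to 0.02 for *Epas1* with JSH-23 in KO tumors, 0.00 to 0.03, -0.01 to 0.03 and -0.02 to 0.02 for *Arnt* in KO against WT with vehicle, with JSH-23 and in the interaction, and -0.07 to 0.00 for *Egln2* and -0.03 to 0.02 for *Vhl* in KO against WT with vehicle. On log2(TPM + 1) values the median change of all tested genes was itself below 0 in the comparisons that use KO tumors with JSH-23. It was -0.16 for KO against WT with JSH-23, -0.20 for JSH-23 in KO tumors and -0.17 for the interaction. The cause was not tested.

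The number of members called was 4 for KO against WT with vehicle and became 1 with a biological coefficient of variation of 0.1 or 0.2. With JSH-23 it was 7, became 4 with library size alone and 1 with either coefficient, and ranged from 4 to 7 with 1 sample left out, the lowest without the second WT library with JSH-23. For JSH-23 in WT it was 7 and became 4 at 0.1 and 0 at 0.2, and for JSH-23 in KO tumors it was 6 and became 1 at 0.2. The interaction went from 4 to 0 with either coefficient. At 1.5-fold, JSH-23 in WT had 2 members, 1 with DESeq2 and in the test against a 1.5-fold change, 0 at 0.2, and 1 to 2 with 1 sample left out. JSH-23 in KO tumors had 1, 3 with library size alone and 4 on either TPM scale, and the interaction had 0, and 1 with library size alone or on either TPM scale. Of the genes in the 7 lists, 49, 52, 53, 52 and 44 were called in the 5 comparisons, 18, 13, 28, 24 and 5 at a coefficient of 0.1, and 4, 3, 6, 14 and 0 at 0.2. Of the 67 tested genes of the lists, 73.1%, 77.6%, 79.1%, 77.6% and 65.7% were called, where 50.5%, 47.0%, 55.8%, 67.8% and 38.4% of all genes were, and at 0.1 the shares were 26.9%, 19.4%, 41.8%, 35.8% and 7.46% against 20.6%, 13.6%, 26.1%, 43.2% and 5.37%. At 0.2 the shares were 5.97%, 4.48%, 8.96%, 20.9% and 0.0% against 4.41%, 1.85%, 5.81%, 15.4% and 0.338% of all genes. The lists hold abundant genes, such as *Pgk1* at 6448 and 6449 CPM in WT tumors with vehicle. The part of abundance in these shares was not tested. A fit with the replicate block kept 4, 7, 7, 6 and 4 members called in the 5 comparisons and changed no member's call. The deviations of same-numbered samples correlated between -0.00702 and 0.0262. Samples of a group differed by little beyond counting error, with a biological coefficient of variation of 1.61%. These correlations therefore cannot decide whether the numbers paired the samples. The depth limits *Epas1* and *Egln3*, and the 2 samples a group limit all small changes.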
